A study of Homo sapiens with 3 samples.

Results

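The genes described here are 9 genes of insulin and insulin-like growth factor signalling and of its FOXO branch, namely IRS1, IRS2, INSR, IGF1R, FOXO1, FOXO3, FOXO4, FBXO32 and PIK3IP1. They were taken by name from the platform annotation, with all their probes, out of 20039 genes with a named probe. They held 14 probes on the array. All cells were of MDA-MB-231, an established human line from a pleural effusion of breast carcinoma with basal and mesenchymal traits. It was grown with fetal bovine serum, and the series title describes its cells as deficient in ASS1, an enzyme of arginine synthesis. RNA was hybridised to 1-colour bead arrays, with 1 array per condition. One culture received ADI-PEG20, a pegylated arginine deiminase that breaks down extracellular arginine, at 0.3 µg/ml for 48 h. Another received ADI-PEG20 for 24 h and afterwards 420 µg/ml of L-arginine for another 24 h. For this culture the ADI-PEG20 dose is labelled 0.3 and its unit is truncated. The third was left untreated for 48 h. No condition was replicated, so every difference below compares these arrays, has no p-value and could not be set against a spread between cultures.

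Insulin and the insulin-like growth factors bind the receptor tyrosine kinases encoded by INSR and IGF1R. The active receptors phosphorylate the docking proteins IRS1 and IRS2, which recruit phosphoinositide 3-kinase (PI3K), and the lipid it makes brings the kinase AKT to the membrane. AKT phosphorylates the FOXO transcription factors and keeps them out of the nucleus. When the pathway is quiet, FOXO proteins enter the nucleus and activate genes that include FBXO32, a ubiquitin ligase subunit known from muscle wasting, and in several tissues IRS2 and INSR themselves. PIK3IP1 is a membrane protein that inhibits PI3K. AKT control of FOXO acts on the proteins, which these arrays did not measure.

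Intensities are the deposited values on a linear scale. The background limit was an intensity of 163, the mode of all intensities plus 3 background SDs. Of the 14 probes, 9 passed that limit on all 3 arrays, 1 passed it on 1 array and 4 on none. The brightest probes of 7 of the 9 genes passed on all 3 arrays, and the exceptions were both receptors. Differences are log2 values, the array named first minus the other, taken after background correction, and those of 1.5-fold or more (0.58) were counted. Of the line's basal and mesenchymal markers, 7 of 8 were above background on all 3 arrays, among them VIM, CD44 and CAV1, and the remaining one, SPARC, was on none. Of 8 luminal markers, KRT19, CDH1 and ERBB3 were above background on all 3 arrays, GATA3 and ESRP1 on 1, and ESR1, PGR and FOXA1 on none. Of 9 markers of leukocytes, endothelium and muscle, 1 was above background on all 3 arrays (the leukocyte gene CD14) and 7 on none. PECAM1, an endothelial marker, lay between 162 and 168, at the limit. Under ADI-PEG20, 1 of 7 basal and mesenchymal markers was 1.5-fold or more higher than in untreated cells and 0 lower. Of 5 luminal markers 2 were higher and 1 lower. Over all genes 7.96% were higher and 9.31% lower. The luminal counts became 1 and 0 without background correction or with both arrays above background. The part of these markers in the results below was not tested.

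Under ADI-PEG20 the transcripts of FOXO1, FBXO32 and IRS2 were higher than in untreated cells, by 0.92, 0.85 and 0.63. On the arginine return array each of these 3 genes lay close to its untreated value or below it. That culture had 24 h of ADI-PEG20 rather than 48 h, and no array was made at 24 h. A fall after arginine return and a lack of rise by 24 h therefore cannot be told apart. IRS1, FOXO3, FOXO4 and PIK3IP1 were also higher under ADI-PEG20, by less than 1.5-fold on their brightest probes. The receptor probes were near or under the background limit on every array, with a highest value of 178. In that first comparison 3 of the 8 members that entered were 1.5-fold or more higher, where 7.96% of all 11121 genes were, and 0 were as much lower, where 9.31% of all genes were. The members' median difference was 0.35, beside -0.003 over all genes. The members were chosen with earlier results of these data known, so these shares and medians only describe them. The members that entered had to be above background on at least 1 of both arrays, and IGF1R did not enter.

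The promoters of the substrate genes, FOXO1 and FOXO4 are shown because their transcripts were among those higher under ADI-PEG20 and each had 1 annotated start in the table used. Each is the RefSeq sequence of the 250 bases before the annotated start on GRCh38.p14, read 5′ to 3′ on the gene's strand, which is the plus strand for FOXO4 and the minus strand for the others. IRS2 is at chr13:109786584-109786833, FOXO1 at chr13:40666642-40666891, IRS1 at chr2:226799821-226800070 and FOXO4 at chrX:71095601-71095850. Capitals mark matches on either strand to the insulin response sequence CAAAACA or to the shorter FOXO core AAACA, which the longer motif contains.
IRS2: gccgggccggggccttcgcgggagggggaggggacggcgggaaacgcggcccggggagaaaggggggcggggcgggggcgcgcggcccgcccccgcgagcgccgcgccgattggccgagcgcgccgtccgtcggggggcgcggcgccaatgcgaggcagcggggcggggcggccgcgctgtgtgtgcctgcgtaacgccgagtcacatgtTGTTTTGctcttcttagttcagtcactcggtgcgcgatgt
FOXO1: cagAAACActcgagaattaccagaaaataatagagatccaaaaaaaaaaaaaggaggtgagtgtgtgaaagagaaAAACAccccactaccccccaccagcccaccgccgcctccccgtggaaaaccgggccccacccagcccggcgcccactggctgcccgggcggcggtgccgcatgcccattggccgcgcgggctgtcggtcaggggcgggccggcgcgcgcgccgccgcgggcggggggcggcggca
IRS1: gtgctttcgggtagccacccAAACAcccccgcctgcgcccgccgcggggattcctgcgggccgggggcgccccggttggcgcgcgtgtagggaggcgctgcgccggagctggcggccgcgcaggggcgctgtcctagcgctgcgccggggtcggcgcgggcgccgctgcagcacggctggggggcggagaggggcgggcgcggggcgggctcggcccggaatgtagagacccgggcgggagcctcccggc
FOXO4: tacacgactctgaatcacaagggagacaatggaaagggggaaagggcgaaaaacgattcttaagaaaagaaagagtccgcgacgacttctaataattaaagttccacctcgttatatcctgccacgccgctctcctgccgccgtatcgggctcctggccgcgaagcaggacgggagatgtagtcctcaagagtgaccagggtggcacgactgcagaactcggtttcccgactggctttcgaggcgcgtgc

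The IRS2 window held the insulin response sequence once, on the opposite strand, 40 to 34 bases before the start. FOXO1 held the core 2 times and IRS1 once, all on the printed strand, and FOXO4 held no match. Promoter windows were searched for 8 of the 9 members, with 12 windows in all, and that of FBXO32 was not searched. Of the 8 genes, 1 held CAAAACA and 5 held the core in some window. Over all 35116 promoter windows of that length, 4.30% held CAAAACA and 40.4% the core. These shares are per window, while FOXO3 and PIK3IP1 had several windows each and so more chances of a match. The FOXO consensus GTAAACA, which also contains the core, was in 2.98% of all windows and in those of none of the 8 genes. The amino acid response motif TGATGNAA was in 3.14% of all windows and likewise in those of none of the 8. A match is a run of letters and says nothing of binding in these cells.

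**Figure D1:**
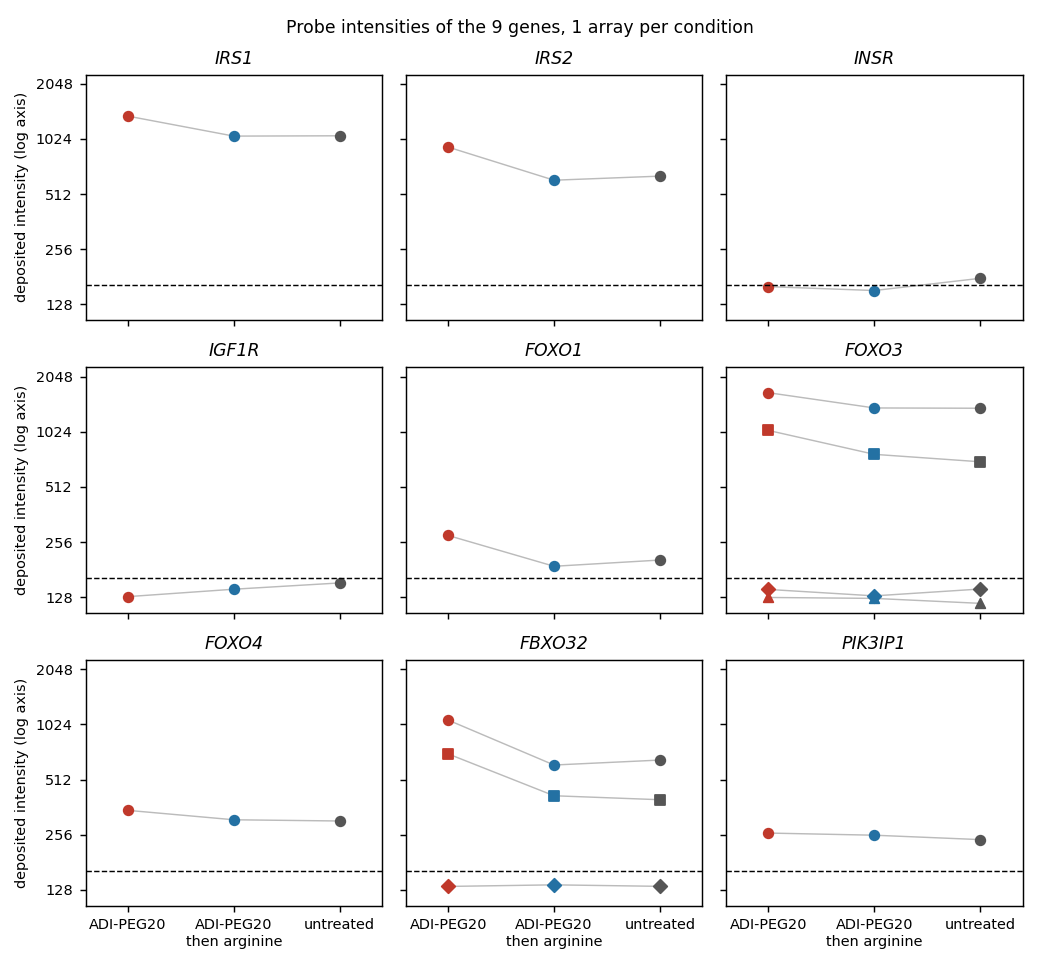
Deposited intensity (log axis) of every probe of the 9 genes on the ADI-PEG20, ADI-PEG20 then arginine, and untreated arrays, with 1 panel per gene, 1 marker shape per probe, a grey line joining the values of a probe, and a dashed line at the background limit of 163. FOXO1, FBXO32 and IRS2 are highest on the ADI-PEG20 array, and no value of the receptors exceeds 178.

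IRS2 and IRS1, the docking proteins that carry the signal from the receptors to PI3K, each had 1 probe. IRS2 had an intensity of 924 under ADI-PEG20, 610 after arginine return and 642 in untreated cells. The ADI-PEG20 value stood apart and the other two lay close together. The difference was 0.63 (1.54-fold) for ADI-PEG20 over untreated cells, -0.09 for arginine return over untreated cells and -0.72 for arginine return over ADI-PEG20. IRS2 was just past the 1.5-fold limit, and without background correction its first difference was 0.53, short of it. IRS1 had 1364 under ADI-PEG20, 1061 after arginine return and 1065 in untreated cells. It was the member next below the limit, at 0.40 under ADI-PEG20 (1.32-fold), -0.01 after arginine return and -0.40 for arginine return over ADI-PEG20. The first difference of IRS2 lay above those of 93.2% of all genes and that of IRS1 above those of 83.4%. Whether these substrates differ from each other in their response could not be tested with 1 array per condition.

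INSR, the insulin receptor, gave intensities of 160 under ADI-PEG20, 152 after arginine return and 178 in untreated cells. Only the untreated value passed the background limit. On the background-corrected scale INSR was at least 1.34-fold lower in each treated culture, while the deposited intensities differed 1.11-fold for ADI-PEG20 and 1.17-fold for arginine return. Every such bound below is one after background correction only, not on the deposited intensities, whose ratio is given beside it. The measured differences were -0.54 for ADI-PEG20 and -0.82 for arginine return, both against untreated cells, and without background correction they were -0.15 and -0.22. IGF1R, the receptor of the insulin-like growth factors, gave 129, 141 and 153 on the ADI-PEG20, arginine return and untreated arrays, all under the limit, and no fold is given. A probe under the limit shows that this probe gave no signal well above background, not that the receptor is missing from the cells.

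FOXO1 had an intensity of 278 under ADI-PEG20, 189 after arginine return and 204 in untreated cells, the last 2 near the background limit. It was highest on the ADI-PEG20 array. The difference was 0.92 (1.89-fold) for ADI-PEG20 over untreated cells, above those of 97.6% of all genes, and 0.45 without background correction. For arginine return it was -0.30 over untreated cells and -1.21 over ADI-PEG20, where 0.837% of all genes had a lower value. Without background correction this last difference was -0.56, short of 1.5-fold, and with an offset of 50 it was -0.91. Under the reported correction FOXO1 had the largest of the members' brightest-probe differences in both comparisons that involve the ADI-PEG20 array. Without correction FBXO32 and IRS2 exceeded it there, and with an offset of 50 FBXO32 did.

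FOXO3 had 4 probes. The brightest gave 1671 under ADI-PEG20, 1380 after arginine return and 1374 in untreated cells, a difference of 0.31 under ADI-PEG20 and 0.01 after arginine return. The next gave 1040, 770 and 702 on the same arrays, a difference of 0.66 under ADI-PEG20 and 0.16 after arginine return. Both probes were highest on the ADI-PEG20 array, but only the dimmer of them passed 1.5-fold. The remaining FOXO3 probes stayed between 118 and 142, under the limit on all arrays. FOXO3 has a near-identical copy in the human genome, FOXO3B, and signal from the copy could not be told apart here. FOXO4 had 348 under ADI-PEG20, 309 after arginine return and 304 in untreated cells. Its differences were 0.31 under ADI-PEG20 and 0.04 after arginine return, so the ADI-PEG20 array was again the highest, by 1.24-fold.

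FBXO32, also called atrogin-1, is the substrate-binding subunit of an SCF ubiquitin ligase and a known FOXO target in muscle. Its brightest probe gave 1081 under ADI-PEG20, 615 after arginine return and 654 in untreated cells. The next probe, which the platform annotation assigns to another transcript of the gene, gave 707, 418 and 398. On both the ADI-PEG20 array stood alone at the top. The differences under ADI-PEG20 were 0.85 (1.80-fold) and 1.08 (2.12-fold), and those for arginine return over ADI-PEG20 were -0.96 and -0.98. Against untreated cells the arginine return differences were -0.11 and 0.10, of opposite sign. The brightest probe's difference under ADI-PEG20 lay above those of 97.0% of all genes and was 0.72 without background correction, where FBXO32 was the only one of the 3 counted members still past 1.5-fold. The remaining probe stayed between 134 and 136, under the limit. PIK3IP1, the PI3K inhibitor, had 261 under ADI-PEG20, 255 after arginine return and 241 in untreated cells. Its differences from untreated cells were 0.23 and 0.16, and -0.07 for arginine return over ADI-PEG20. The value of 0.23 under ADI-PEG20 was the smallest of the 7 genes above background on all arrays.

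**Figure D2:**
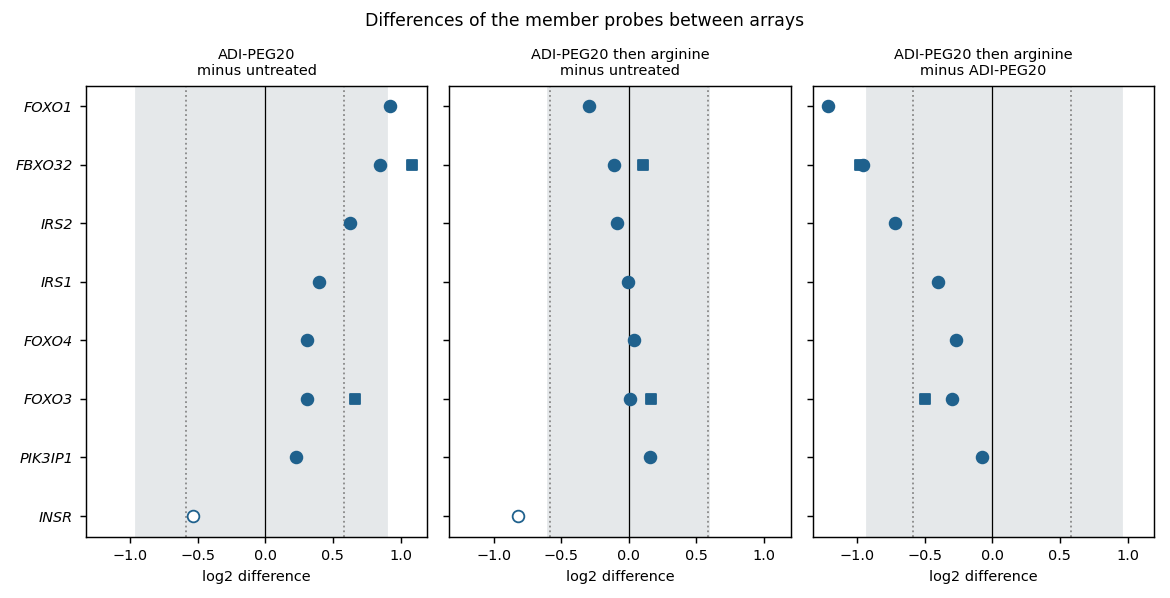
Log2 differences of the member probes in the 3 comparisons, where circles are brightest probes, squares other probes, open symbols probes above background on only 1 of the arrays compared, the grey band the central 95% of all genes and dotted lines 1.5-fold. The differences lie mostly above 0 for ADI-PEG20 over untreated cells, around 0 for arginine return over untreated cells and below 0 for arginine return over ADI-PEG20.

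The error of a difference could be judged only from genes with several probes. Over 2540 genes the SD between probes was 0.22 for ADI-PEG20 over untreated cells, and 0.27 where the dimmer probe was under an intensity of 300, 0.19 from 300 to 1000 and 0.16 above 1000. This error covers probes and not cultures. FOXO1, FBXO32 and IRS2 differed by more than 3 times the SD of their own range, and IRS1 by more than 2 times. FOXO3, on its brightest probe, and FOXO4 differed by 1 to 2 SDs, and PIK3IP1 by less than 1.

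Arginine return was then compared with untreated cells. Of the 8 members that entered, 0 were 1.5-fold or more higher, beside 2.64% of all 11064 genes, and 1 was as much lower, INSR, beside 2.67% of all genes. For INSR the bound was under 1.5-fold, as given above. The median of the members was -0.05, beside -0.007 over all genes. Against ADI-PEG20, 7 members entered, all 7 with a value below 0 and a median of -0.40, beside -0.0006 over all genes. FOXO1, FBXO32 and IRS2 were 1.5-fold or more lower after arginine return, 3 of the 7, beside 8.93% of all 11113 genes, and 0 were as much higher, beside 9.90%. The comparisons share arrays, so the ADI-PEG20 array sets both the first difference and this one. The third comparison is no separate evidence of the first, and its cultures differ in hours of ADI-PEG20 as well as in arginine.

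The rest of the pathway was read from lists of genes ordered by role. Some genes are repeated between lists. Among the ligands and their binding proteins, 5 of 11 were above background in the first comparison. On their brightest probes 0 passed 1.5-fold either way, beside 7.96% of all genes higher and 9.31% lower. With so few genes a count of 0 says little. INS, IGF1 and IGF2 were under the limit on all arrays, and of the binding proteins IGFBP3 was at 0.43 (0.65 on another probe) and IGFBP4 at -0.36 under ADI-PEG20. The list's median was 0.03. Among other receptors, adaptors and their regulators, 18 entered with a median of 0.01, 1 was 1.5-fold or more higher and 3 lower, beside 7.96% and 9.31% of all genes. Without background correction both counts were 0. GAB1, a docking protein, was at 0.61, with an intensity of 170 under ADI-PEG20, 160 after arginine return and 152 in untreated cells, and at least 1.16-fold higher (1.12-fold in deposited intensity). SOCS1, which restrains cytokine and insulin receptor signalling, was at -1.05, with 166 under ADI-PEG20, 196 after arginine return and 214 in untreated cells, all near the limit. ENPP1, a membrane protein that inhibits the insulin receptor, was at -0.67, with 417 under ADI-PEG20, 513 after arginine return and 592 in untreated cells, and at -0.63 on another probe. DOK1, an adaptor, was at least 1.44-fold lower under ADI-PEG20 (1.17-fold in deposited intensity).

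Of PI3K subunits, AKT kinases, opposing phosphatases and further genes of that step, 17 entered with a median of -0.05. Among them 1 was 1.5-fold or more higher and 3 lower, beside 7.96% and 9.31% of all genes. The 3 became 1 without background correction, with an offset of 50 or with both arrays above background, and 0 at 2-fold, where the 1 also became 0. INPP4B, a lipid phosphatase that acts against PI3K signalling, was at -0.99 under ADI-PEG20, with 452 under ADI-PEG20, 753 after arginine return and 780 in untreated cells. It was the lowest of the list, and its arginine return value was close to the untreated one, at -0.06. TRIB1, a pseudokinase and the 1 gene counted as higher, was at 0.76 with 755, 471 and 495 on the same arrays. It is also counted among the FOXO targets below. PIK3CG and INPP5D were above background on 1 of both arrays in that comparison, at least 1.08-fold and 1.13-fold lower under ADI-PEG20 (1.20-fold and 1.18-fold in deposited intensity). AKT1 was at -0.22 on its brightest probe, and another bright probe gave -0.27, while the remaining one had 152 under ADI-PEG20, under the limit, and 189 in untreated cells.

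In the mTOR branch, which AKT activates and which also responds to amino acids, 18 genes entered with a median of -0.02, 3 were 1.5-fold or more higher and 0 lower, beside 7.96% and 9.31% of all genes. At 2-fold the 3 became 1. EIF4EBP1, the translation repressor that mTOR complex 1 phosphorylates, was at 1.05 under ADI-PEG20, with 457 there, 271 after arginine return and 283 in untreated cells. DDIT4, which restrains mTOR complex 1 under stress, was at 0.79, with 8577, 6520 and 4999 on the same arrays, so its arginine return value lay between the others. FOXK2, a forkhead factor, was at 0.74, with 226, 199 and 184.

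Of the enzymes and binding proteins that act on FOXO proteins, 22 entered with a median of 0.004. On their brightest probes 1 was 1.5-fold or more higher and 1 lower, beside 7.96% and 9.31% of all genes. At 2-fold the 1 higher became 0. YWHAB was at 0.20 on its brightest probe and 0.73 on another. SGK3 was at 0.26 on its brightest probe and 0.85 on another, which was near the background limit. SGK1, a kinase related to AKT that phosphorylates FOXO proteins, was at 0.65 (0.74 and 0.71 on other probes), with 1865 under ADI-PEG20, 1068 after arginine return and 1230 in untreated cells. SKP2, the F-box protein that targets FOXO1 for degradation and also acts in the cell cycle, was at -1.01 (-1.08 on another probe), with 733, 1319 and 1356. FOXO6, a further FOXO gene, had 153 under ADI-PEG20, under the limit, 169 after arginine return and 165 in untreated cells.

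Among described FOXO targets other than the members, 34 of 39 entered with a median of 0.10, beside -0.003 over all genes, with 9 past 1.5-fold upward and 2 downward, beside 7.96% and 9.31% of all genes. The 9 became 5 without background correction and 2 at 2-fold. Values were spread to both sides, as 20 of the 34 had one above 0 and 14 below. TXNIP, an arrestin-like inhibitor of glucose uptake, was at 1.71, with 11848 under ADI-PEG20, 3067 after arginine return and 3712 in untreated cells. SESN2, a stress-induced inhibitor of mTOR complex 1, was at least 2.03-fold higher under ADI-PEG20 (1.48-fold in deposited intensity), with 207 there, 169 after arginine return and 139 in untreated cells. GABARAPL1, of the ATG8 family of autophagy proteins, was at 0.99 with 666, 432 and 396, and MXI1, a MAX partner, at 0.97 with 257, 183 and 191 (0.47 on another probe). The antioxidant enzyme gene CAT was at -1.02 (-0.76 on another probe), with 582, 897 and 1055, and BNIP3, a mitophagy receptor, at -0.96 with 5390, 13337 and 10373. After arginine return 33 targets entered, with a median of 0.02 over untreated cells, 2 at 1.5-fold or more higher and 0 lower, beside 2.64% and 2.67% of all genes. Several listed targets are also targets of other factors, which these arrays cannot tell apart.

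**Figure D3:**
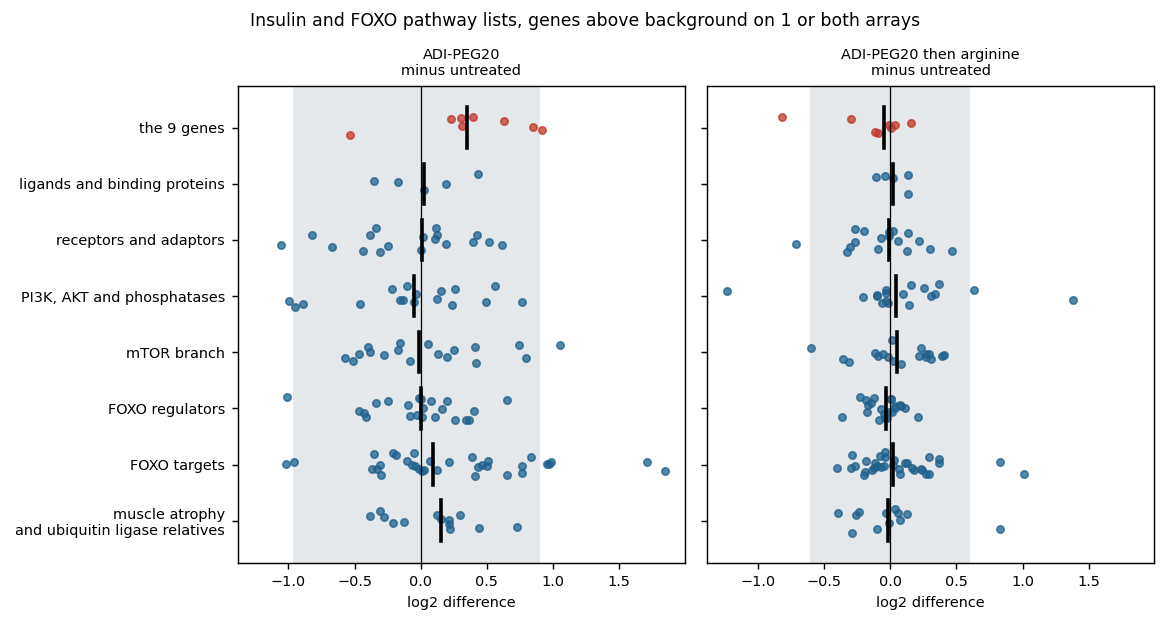
Log2 differences of ADI-PEG20 over untreated cells (left) and of arginine return over untreated cells (right) for the 9 genes and 7 lists of the pathway, where each point is a gene above background on 1 or both arrays, black bars are medians and the grey band is the central 95% of all genes. In the left panel the 8 of the 9 genes that entered have a median of 0.35 and the other lists lie between -0.05 and 0.15. The genes and lists were chosen with earlier results of these data known.

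For each member past 1.5-fold, the genes with the most alike pattern were found by the Euclidean distance between centred log2 values over the 3 arrays, among 9839 genes above background on all of them. IRS2 was nearest to PHLDA1 (distance 0.002), AXIN1 (0.011) and FAM167A (0.017). FOXO1 was nearest to MOCOS (0.030), SNAP91 (0.039) and TRNT1 (0.053), and FBXO32 to KMT5B (0.007), DCAF13 (0.019) and BBS10 (0.032). PHLDA1, for example, had 11462 under ADI-PEG20, 7022 after arginine return and 7459 in untreated cells. With 3 arrays such distances describe shape only, and many genes lie close to any pattern.

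**Figure D4:**
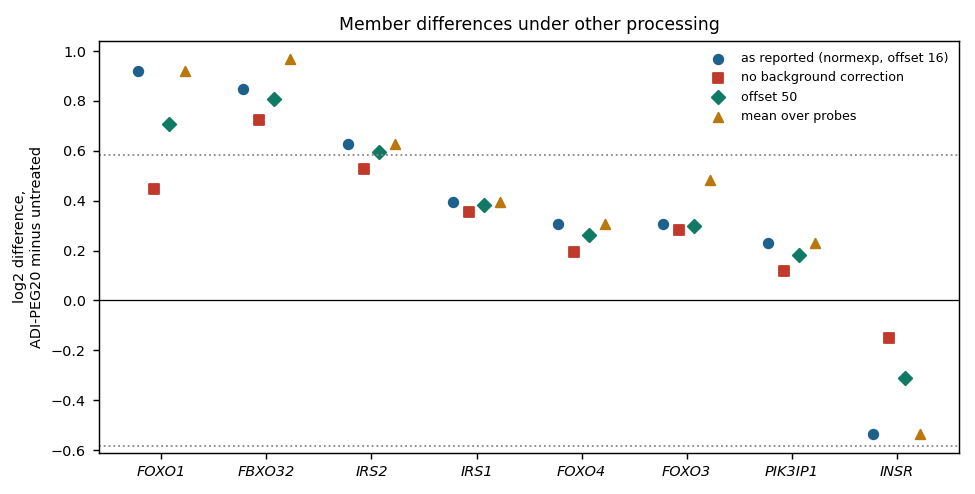
Log2 difference of ADI-PEG20 over untreated cells for the brightest probe of each member that entered, under the reported processing and 3 alternatives (for the mean over probes, all probes above background), with dotted lines at 1.5-fold. FBXO32 is past the line in every setting shown and FOXO1 is at 0.45 without background correction. No member changes sign, which correction and offset could not bring about for a single probe.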

How the data were processed

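Biotin-labelled cRNA from MDA-MB-231 cultures went onto Illumina bead arrays, 1 for each of 3 conditions, per the labels' protocols. The authors deposited linear intensity values of 47231 probes. The submitters' processing notes list GenomeStudio with no version. How values were normalized is not given in the sources used here. Their minimum of 106 and the maximum of 28717 were equal on all arrays, as quantile normalization gives. A further table, with 6 columns of per-sample values whose names match no single sample, was not used. The number of arrays limits the precision.

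Intensities were corrected by normexp in Python 3.11.15 with scipy 1.17.1, with a background mode of 137, an SD of 8.78 and a mean signal of 425, an offset of 16 was added and log2 was taken. A gene stood by its probe with the highest mean and was compared between 2 arrays when 1 or both exceeded the limit there. Where only 1 was, the fold is a bound on the corrected scale against the lowest value above background there. Counts use the measured differences of the brightest probes, so another probe of a gene can pass 1.5-fold uncounted. The steps were tested on simulated arrays with known differences. These were put only into bright probes, so the test did not cover dim ones such as that of FOXO1.

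Of the probes, 30113 had a single gene, 8 several and 17110 none listed, by the platform annotation with symbols updated through RefSeq. The members and the lists were chosen with earlier results of these data known. Genes were named by rule: every member, per list up to 4 genes in each direction with the largest difference under ADI-PEG20 among those past 1.5-fold, and the 3 genes most alike to each member past 1.5-fold. Other genes named were chosen after their values were seen. Alternatives were no background correction, an offset of 50, the mean over probes, no filter or a stricter one on dim probes, and a count at 2-fold.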

Additional observations from a re-analysis of the deposited data

How the results depend on the processing

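With 1 array per condition no replicate could be left out and no paired analysis was possible because no condition had more than 1 array. Of 113 member differences recomputed under the alternatives, 106 moved by less than the SD between probes, 7 by more and 0 changed sign among those past 1.5-fold. The 7 belong to INSR and FOXO1, under no background correction or an offset of 50. Without correction FOXO1 was at -0.56 for arginine return over ADI-PEG20, short of 1.5-fold. Many of the 106 could not move. The settings with no filter on dim probes (23 differences) and with both arrays above background (21) change which genes enter, not a difference. The mean over probes could alter only FOXO3 and FBXO32. Correction and offset keep the order of a probe's intensities, so they could not change its sign. Without background correction the count of members 1.5-fold or more higher under ADI-PEG20 was 1 in place of 3, FBXO32, since IRS2 was at 0.53 and FOXO1 at 0.45. At 2-fold it was 0, and for arginine return below ADI-PEG20 it was 1 in place of 3, FOXO1. With no filter on dim probes 1 member was lower under ADI-PEG20, IGF1R, which is under background on all arrays. The 1 member lower after arginine return than in untreated cells, INSR, became 0 without background correction, with an offset of 50, with both arrays required above background, and at 2-fold. Over all genes, without background correction 244 were higher under ADI-PEG20 and 325 lower, in place of 885 and 1035, and at 2-fold 194 and 236. With both arrays above background they were 589 and 755, and with an offset of 50 they were 465 and 578. For arginine return over untreated cells, 292 higher and 295 lower became 4 and 1 without correction, 40 and 29 with an offset of 50, 80 and 72 with both arrays above background, 518 and 469 with no filter, and 40 and 37 at 2-fold. Over ADI-PEG20, 1100 and 992 became 336 and 279 without correction, 621 and 513 with an offset of 50, and 227 and 209 at 2-fold. Of 60 list medians 59 moved by less than that SD, 10 of them by rule, since the count at 2-fold leaves medians unchanged. The exception was that of the luminal markers, at -0.08 with no filter on dim probes in place of -0.32. Of 120 counts of list members past the limit, 31 moved by more than 1.5 times.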

Other observations

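Ubiquitin ligases, SCF partners of FBXO32 and other genes tied to muscle were read as a further list, of which 13 of 17 entered. EIF3F, MYOD1 and MUSTN1 on it are neither ligases nor SCF subunits. Of these only EIF3F entered, and its value was the list's median. Under ADI-PEG20 1 was 1.5-fold or more higher and 0 lower, beside 7.96% and 9.31% of all genes, with a median of 0.15. The 1 became 0 without background correction. FBXO25, the closest relative of FBXO32, was at least 1.21-fold higher after background correction (1.14-fold in deposited intensity), at an intensity of 172 under ADI-PEG20 and 151 in untreated cells. FBXO30 had 450 under ADI-PEG20, 306 after arginine return and 363 in untreated cells, a difference of 0.44 under ADI-PEG20 (0.40 on another probe) and of -0.83 for arginine return over ADI-PEG20. TRIM63, the other ligase known from muscle wasting beside FBXO32, had 170 under ADI-PEG20, 197 after arginine return and 164 in untreated cells. Its highest value was thus on the arginine return array, at 0.83 over untreated cells, and all 3 values were near the background limit. The SCF subunits CUL1, SKP1 and RBX1 were at 0.30, -0.13 and -0.39 under ADI-PEG20. FBXO30, TRIM63 and the SCF subunits were named after their values were seen.

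Some pathway genes differed more from untreated cells on the arginine return array than on the ADI-PEG20 array. PIK3R3, a regulatory subunit of PI3K, had 151 under ADI-PEG20, 185 after arginine return and 141 in untreated cells, and was at least 1.51-fold higher after arginine return than in untreated cells once background was corrected (1.31-fold in deposited intensity). PIK3R1, the main regulatory subunit, had 187, 214 and 181 on the same arrays, a difference of 0.63 over untreated cells. SH2B1, an adaptor of the insulin receptor, had 230, 205 and 259, a difference of -0.71 over untreated cells. Its ADI-PEG20 value lay between the others, at -0.34 over untreated cells. These genes were picked after their values were seen, at intensities near the background limit.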
